A study of Mus musculus with 3 samples.

Results

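The genes described here are 9 of the 26989 listed in the count tables: the vitamin D receptor gene Vdr, its partner receptors Rxra and Rxrb, the coactivator subunit Med1, the vitamin D hydroxylases Cyp2r1, Cyp27a1, Cyp27b1 and Cyp24a1, and Tslp, the gene of the cytokine thymic stromal lymphopoietin. They were taken by name and followed in each cell class and keratinocyte layer of whole skin from C57BL/6 mice aged 9 weeks. There are 3 single-cell libraries, 1 for each of 3 groups: a control library (the treatment label is nomal+saline), a UV library (UV irradiated+saline) and a UV plus VD library (UV irradiated+VD). VD is taken to mean vitamin D, which the series title names together with UVB, photoaging-related inflammation and protection; the VD library also had UV, and dose, route, number of animals pooled and time after irradiation are not given in the sources used here. With 1 library per group no difference was tested, and each comparison is between libraries, not conditions.

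Vitamin D is made in skin from a cholesterol precursor under UVB light. CYP2R1 and CYP27A1 can carry out the first activating hydroxylation, CYP27B1 the last one, which gives the hormone calcitriol, and CYP24A1 inactivates it; keratinocytes are known for holding the whole pathway. Calcitriol binds the receptor VDR, which pairs with RXR on DNA and recruits coactivators such as the Mediator complex through MED1, and Cyp24a1 and Tslp are both known to be inducible through it in epidermis. TSLP is an epithelial cytokine that acts on dendritic cells, T cells and innate lymphoid cells and is linked to type 2 inflammation and itch.

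Of the 9 genes, 7 had an entry in the RefSeq promoter table of build GRCm38.p6. The 250 bases before the start are shown for the receptor gene and for the enzyme gene that makes its ligand, the genes at the receiving and the producing end of the pathway. Capitals mark a single receptor half-site (AGGTCA or AGTTCA or GGGTCA or GGTTCA, searched on both strands), the GC box GGGCGG, or a TATA box (TATAAA or TATATA). The first sequence lies at chr15:97908297-97908546 on the minus strand and the second at chr10:127047996-127048245 on the plus strand.
Vdr: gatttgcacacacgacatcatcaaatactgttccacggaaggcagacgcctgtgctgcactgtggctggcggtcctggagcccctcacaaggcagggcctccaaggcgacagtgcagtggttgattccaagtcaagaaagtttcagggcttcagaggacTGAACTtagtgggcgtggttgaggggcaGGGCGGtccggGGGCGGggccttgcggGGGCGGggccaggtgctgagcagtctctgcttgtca
Cyp27b1: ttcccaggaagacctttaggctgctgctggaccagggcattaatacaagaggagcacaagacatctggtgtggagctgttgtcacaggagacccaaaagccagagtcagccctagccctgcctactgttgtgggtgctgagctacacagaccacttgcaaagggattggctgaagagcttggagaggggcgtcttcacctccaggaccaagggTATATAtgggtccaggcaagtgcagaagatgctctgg
The Vdr window held 1 half-site, 91 bases before the start and on the reverse strand, and 3 GC boxes, 63, 52 and 36 bases before it, with no TATA word. The Cyp27b1 window held a TATA word 37 bases before the start and neither of the other motifs. Half-sites were also present in the windows of Cyp27a1 (1), Cyp2r1 (1) and the second Rxra promoter (3), while Med1 and both Rxrb promoters had GC boxes only. Such words are common: 38.6% of 32851 mouse promoter windows held a half-site, 32.7% a GC box and 15.6% a TATA word, so a match is a description of the letters.

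After filtering, 9078 control, 5451 UV and 6199 UV plus VD cells remained, with 79450666, 50610389 and 69126823 counts and a median of 6822.5, 7566 and 9301 counts per cell. Keratinocytes were 93.3%, 65.7% and 92.9% of the cells. The UV library held 589 macrophages, monocytes or dendritic cells against 134 and 90, 481 fibroblasts against 213 and 208, and a hair matrix cluster of 311 cells that neither other library had. Within the keratinocytes, 19.9% were basal in control, 11.9% in UV and 11.7% in UV plus VD, and granular cells were 2.16%, 4.16% and 7.67%. The spinous class rests on different clusters: cluster 0 gave 1906 control and 98 UV cells, cluster 9 gave 7 and 657. The basal class does too: cluster 7 gave 672 control and 74 UV cells, and cluster 28 gave 2 and 74. Markers of other cell types also stood higher in UV keratinocytes: all 12 fibroblast markers had counts in each library and together made 41.0, 146 and 24.9 CPM, and the 13 macrophage or monocyte markers, of which 11, 12 and 13 had counts, made 10.6, 49.8 and 12.6 CPM. Their part in the values given here was not tested. Few barcodes were shared between libraries, 37 to 66 per pair.

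Levels are counts summed over a class and scaled to a class total of 1000000 (CPM), with 95% intervals in square brackets that cover counting error only. In keratinocytes, Vdr stood at 66.4 [64.6, 68.3] CPM in the control library, 47.9 [45.7, 50.1] in UV and 50.3 [48.6, 52.1] in UV plus VD. Keratinocytes held 97.1%, 87.6% and 97.7% of all Vdr counts, while they held 75.7% of all counts in UV and 95.7% in UV plus VD. Outside them the Vdr level was 24.7 CPM in control fibroblasts and 12.9 in UV fibroblasts, which is 37.2% and 27.0% of the keratinocyte level. Keratin RNA reached the same cells: Krt14 in fibroblasts stood at 34.8% of its keratinocyte level in control and 13.9% in UV, and Krt10 in T or NK cells at 73.0% and 44.7%. T or NK cells had Vdr at 100.2% of the keratinocyte level in control and 48.5% in UV, so their Vdr cannot be told apart from keratinocyte RNA. This class rests on different clusters too: number 22 held 118, 37 and 33 of its cells and number 23 held 10, 134 and 26. Cyp27a1 had its highest levels outside keratinocytes, standing at 1349% of the keratinocyte level in control macrophages, monocytes or dendritic cells and at 527% in control fibroblasts.

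**Figure D1:**
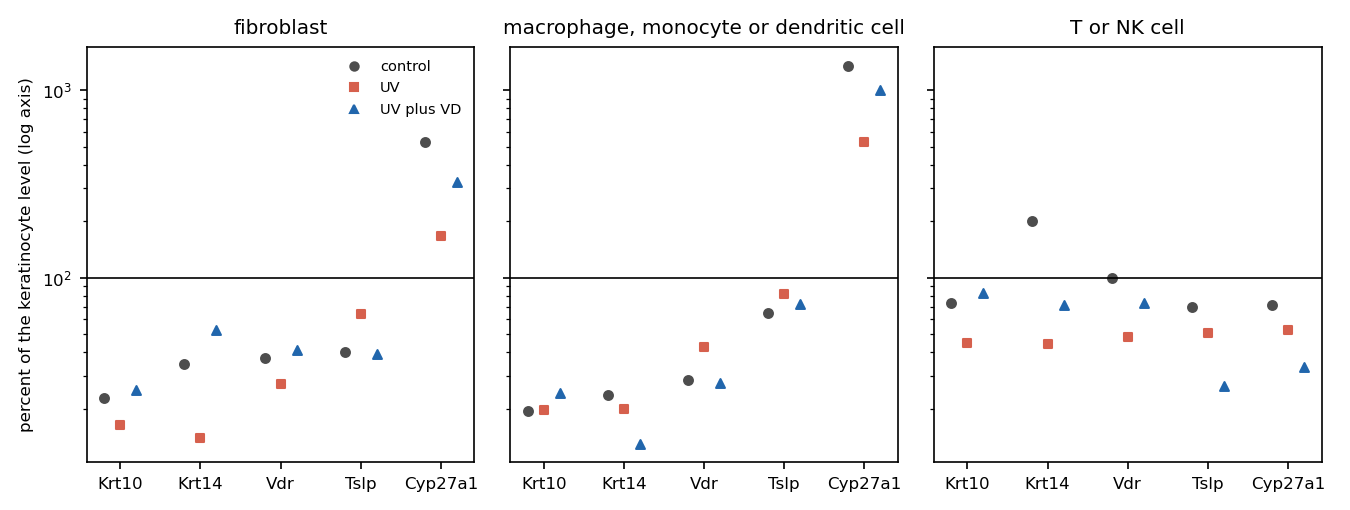
Level of each gene outside keratinocytes as a percent of its level in the keratinocytes of the same library (log axis), 1 panel per class and 1 marker per library; the black line is 100%. Vdr lies under the line in fibroblasts and macrophages, and Cyp27a1 far above it, at 1349% in the control macrophage class.

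Vdr had counts in every keratinocyte class, and upper hair follicle cells were at its high end, with 108 CPM in control, 94.0 in UV and 75.9 in UV plus VD. Cluster 12 had 120 CPM in 73 control cells and 74.2 CPM in 235 UV cells. It is given by number, since Krt17, Krt5, Krt14 and Krt15 lead it, and its top 10 genes hold 3 basal markers and 0 of the bulge and outer root sheath list that scored highest. The hair matrix cluster of the UV library had a lower level, 38.3 CPM, or 79.9% of the UV keratinocyte value. Interfollicular layers were close to each other in control, at 63.0 [58.1, 68.1] CPM in basal, 62.9 [60.5, 65.4] in spinous and 73.4 [69.4, 77.5] in spinous to granular cells. Granular cells stood apart, with 27.6, 17.6 and 22.7 CPM in the control, UV and UV plus VD libraries. The basal and spinous intervals overlap in control, and the granular interval lies below both.

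**Figure D2:**
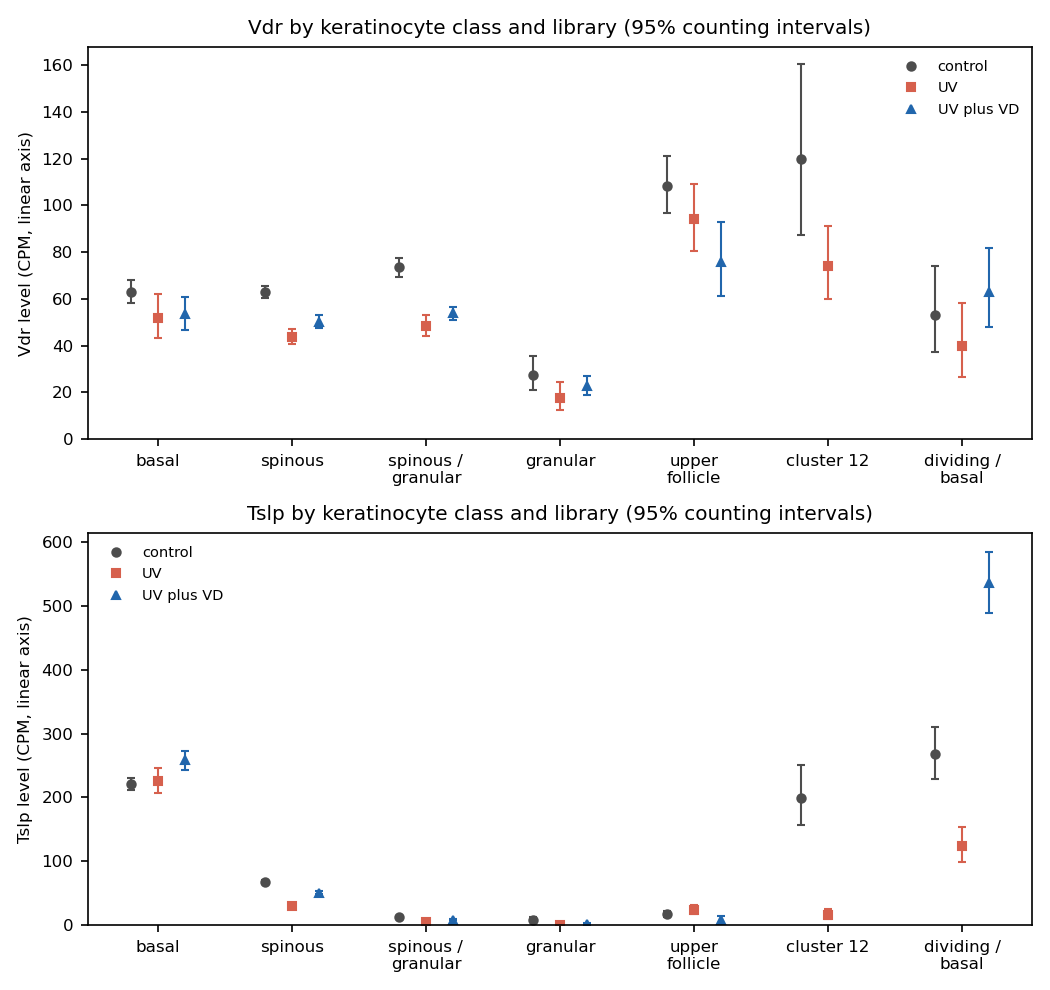
Vdr (top) and Tslp (bottom) level in CPM by keratinocyte class, 1 marker per library, with 95% counting intervals; the axes are linear and start at 0. Vdr is at 75.9 to 108 CPM in upper follicle cells and lowest in granular cells in each library, while Tslp is at 222 to 258 CPM in basal cells and under 10 CPM in granular cells.

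Over all keratinocytes the UV library had 0.721 [0.683, 0.760] times the control level of Vdr, and the UV plus VD library 1.05 [0.993, 1.11] times the UV level and 0.758 [0.725, 0.792] times the control level. Both irradiated libraries therefore lay below control, and the interval between them includes 1. By class, the UV to control ratio was 0.824 [0.673, 1.001] in basal cells and 0.696 [0.642, 0.754] in spinous cells. It was 0.658 [0.590, 0.733] in spinous to granular cells and 0.866 [0.715, 1.05] in upper follicle cells. The intervals in basal and upper follicle cells reach 1, and those of the spinous and spinous to granular classes do not. The share of keratinocytes with a Vdr count was 36.8%, 33.5% and 36.2%, or 14.7%, 11.4% and 11.2% with each cell thinned to 2500 counts. T or NK cells, where it can be keratinocyte RNA, had 35.2%, 8.77% and 23.7%, thinned to 13.3%, 4.09% and 8.47%, at median totals of 6550, 3983 and 7341 against 6955, 9573 and 9718 in keratinocytes.

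Of the 1644 UV spinous cells, 341, 341 and 207 were in clusters 1, 2 and 5, which control cells also filled. Vdr stood there at 57.2, 68.1 and 62.4 CPM in control and at 44.5, 46.1 and 45.5 CPM in UV, ratios of 0.779 [0.655, 0.923], 0.678 [0.552, 0.826] and 0.729 [0.604, 0.875]. In cluster 0, which has 98 UV cells, the ratio was 1.03 [0.730, 1.40], with Vdr at 67.2 CPM in control, 68.9 [49.4, 93.4] in UV and 62.7 in UV plus VD. Cluster 9, whose leading genes include the cornified envelope gene Sprr1b and the stress keratin Krt16 and which is nearly all UV, had 40.2 [35.9, 44.8] CPM. Interfollicular keratinocytes were also ordered by a score of spinous and granular markers minus basal markers and cut into 6 bins of equal size; of 15915 cells, 44.6% lie within 0.1 score units of a cut, so the bins are ranges. The basal keratin Krt14, 1 of the genes that set the order, went from 6933 CPM in bin 1 to 28.1 CPM in bin 6. From bin 1 to bin 6, UV stood at 0.709, 0.867, 0.918, 0.689, 0.688 and 0.626 times control. The intervals of bins 2 and 3 include 1, and the lowest ratio was in the most differentiated bin.

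RXRA and RXRB are the partners VDR needs for high-affinity DNA binding, and they also pair with retinoid, thyroid and fatty acid receptors. Rxra followed differentiation: its level in control went from 10.8 CPM in bin 1 to 26.3 CPM in bin 5 and 19.5 CPM in bin 6. In UV it went from 9.17 to 18.8 and 20.8 CPM, and in UV plus VD from 7.59 to 21.9 and 20.7 CPM, so the low end lay in the basal bin in each library. Over all keratinocytes Rxra was at 18.5, 16.6 and 17.4 CPM, with ratios of 0.898 [0.817, 0.987] for UV against control and 1.05 [0.953, 1.16] for UV plus VD against UV. Rxrb was flatter across the bins, 5.46 to 8.47 CPM in control, and stood at 7.15, 7.02 and 8.44 CPM over all keratinocytes. The UV plus VD level of Rxrb was 1.20 [1.04, 1.40] times UV and 1.18 [1.05, 1.33] times control. Sebocytes, which make the skin's lipid film, had Rxra at 22.1 CPM in control and 23.7 CPM in UV, from 9 and 26 counts. The 37 sebocytes of UV plus VD had 10.8 CPM, from 3 counts. Sebocytes did not stand apart in UV, where T or NK cells had Rxra at 23.2 CPM, from 23 counts. UV fibroblasts were lower, at 10.7 CPM from 39 counts. These Rxra differences were not tested. The UV hair matrix cluster had Rxrb at 14.2 CPM.

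MED1 is the Mediator subunit that binds liganded nuclear receptors. Med1 went the other way from Rxra along the bins, from 26.4 CPM in control bin 1 to 11.6 CPM in bin 6, from 24.0 to 12.4 CPM in UV and from 29.2 to 14.96 CPM in UV plus VD. Over all keratinocytes it was at 22.2, 17.3 and 20.8 CPM. The UV level was 0.779 [0.711, 0.853] times control and the UV plus VD level 1.20 [1.10, 1.32] times UV, while UV plus VD against control was 0.937 [0.872, 1.01]. In spinous cells Med1 stood at 24.97 CPM in control, 17.4 in UV and 23.7 in UV plus VD, against 26.3, 23.8 and 26.3 CPM in basal cells. Fibroblasts had Med1 at 23.9, 27.5 and 25.3 CPM, above the level over all keratinocytes of each library, from 29, 100 and 34 counts. In UV the hair matrix cluster had 33.8 CPM and T or NK cells 26.2. The macrophage, monocyte or dendritic class had 19.5 there, blood endothelial cells 15.6 and sebocytes 15.5. The differences between these classes were not tested.

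**Figure D3:**
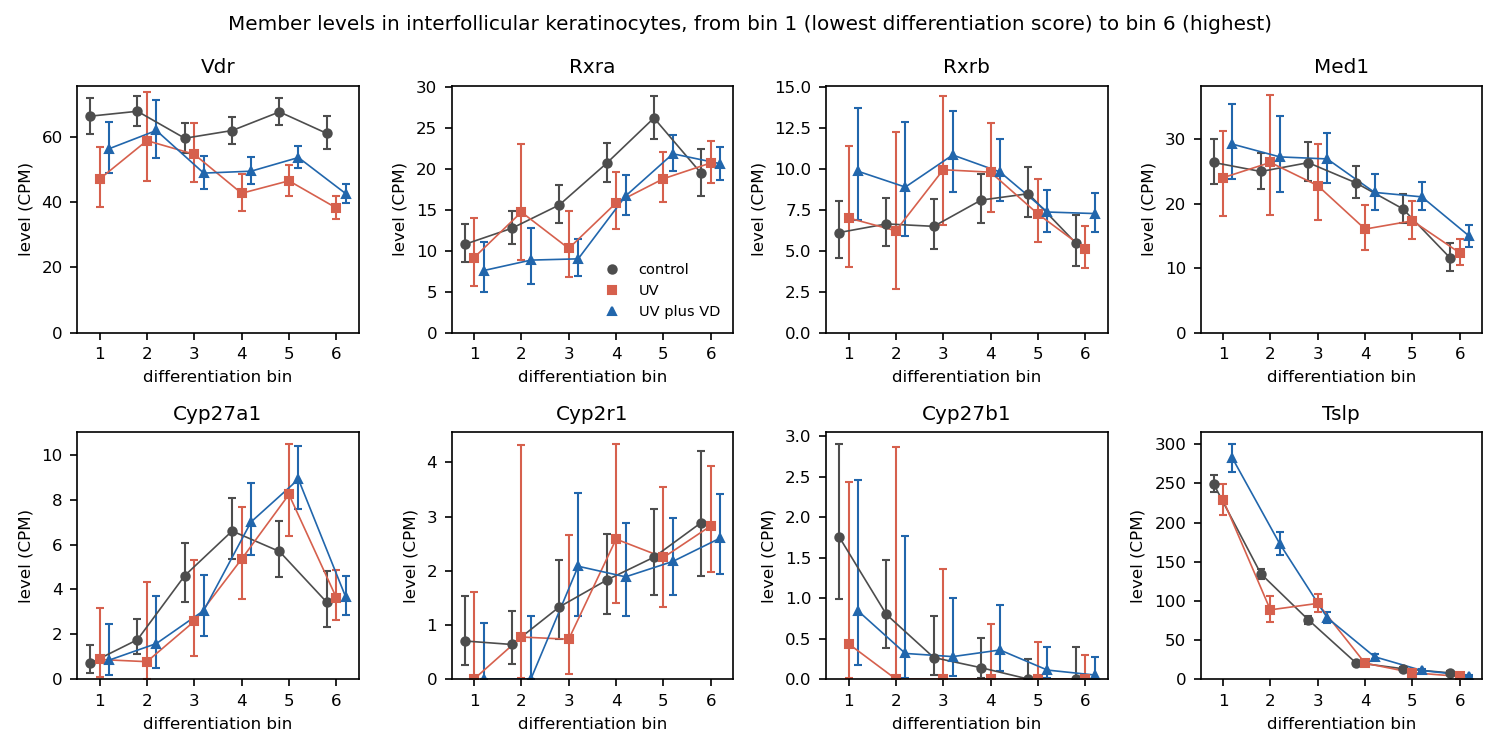
Level in CPM (linear axes from 0) of 8 of the genes in 6 bins of interfollicular keratinocytes, from the lowest differentiation score (bin 1) to the highest (bin 6), 1 line per library with 95% counting intervals. Tslp, Med1 and Cyp27b1 are highest in the first bins, Rxra and Cyp2r1 in the last ones, and Cyp27a1 in bins 4 and 5.

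The hydroxylase genes were sparse and split along the layers. Cyp2r1, the main enzyme of the first activating step in liver, had 118, 80 and 140 counts in the 3 libraries. With libraries pooled it went from 0.417 CPM in bin 1 to 2.73 CPM in bin 6. The granular class did not share this rise. The spinous to granular clusters 3 and 6 had 3.06 and 3.26 CPM, with libraries pooled. The granular clusters 18, 19 and 20 had 0.652, 0.271 and 0.690 CPM, from 2, 1 and 2 counts. In spinous cells, where cluster 9 is part of the UV class, Cyp2r1 had 1.005 CPM in the control library, 1.98 in UV and 1.88 in UV plus VD. The UV ratio was 1.97 [1.22, 3.15], but the spinous clusters did not share 1 direction. Cluster 1 had 1.43 CPM in control and 0.537 in UV, from 19 and 2 counts. Cluster 5 had 1.25 and 3.82 CPM, from 13 and 12 counts. Clusters 0 and 2 were also higher in UV, from 1 and 4 UV counts, and cluster 9 had 17 UV counts. Over all keratinocytes the ratio was 1.24 [0.912, 1.68] for UV against control and 1.06 [0.788, 1.43] for UV plus VD against UV, and both intervals include 1.

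Cyp27b1, which makes calcitriol, lay at the opposite end of the bins. Its pooled level went from 1.32 CPM in bin 1 to 0.648, 0.236, 0.195, 0.0487 and 0.024 CPM in the bins that follow, and it had 0 counts in 774 granular cells. In basal cells there were 14, 1 and 3 counts in control, UV and UV plus VD, and in spinous cells 16, 0 and 8. Of the spinous counts, cluster 0 gave 11 in 1906 control cells, 0 in 98 UV cells and 1 in 425 UV plus VD cells. The part of this cluster mix in the Cyp27b1 ratios was not tested. The whole keratinocyte class had 33, 4 and 17 counts, or 0.437, 0.104 and 0.257 CPM. The UV ratio was 0.239 [0.0614, 0.671], and UV plus VD against UV was 2.46 [0.804, 10.1], an interval that includes 1. Over the alternative settings the UV ratio ran from 0.0737, in interfollicular cells only, to 0.968, with 10 added to each CPM. The highest pooled level among keratinocyte classes was 3.84 CPM in cluster 12, from 7 counts.

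Cyp27a1, a mitochondrial enzyme that hydroxylates both sterols and vitamin D, stood above its keratinocyte level in the macrophage class and in fibroblasts. Keratinocytes, the larger class, still held 80.8%, 60.1% and 86.9% of its counts, and Langerhans cells had 1, 1 and 0 counts. The macrophage, monocyte or dendritic class had 57.0 CPM in control, 30.4 in UV and 55.2 in UV plus VD, with ratios of 0.533 [0.368, 0.784] and 1.82 [1.15, 2.79] for UV against control and UV plus VD against UV. This class rests on different clusters: number 13, with the resident macrophage genes Mrc1 and Cd209f, held 114, 136 and 76 of its cells, and number 10, led by the antigen presentation genes Cd74, H2-Aa and H2-Ab1 and with the monocyte gene Ly6c2 at 837 CPM in UV, held 20, 453 and 14. Within cluster 13 the libraries were level, at 68.1 [48.6, 92.7], 62.0 [46.8, 80.5] and 64.0 [41.8, 93.7] CPM, and cluster 10 had 18.1 CPM in UV. Fibroblasts had 22.3, 9.64 and 17.8 CPM, a UV ratio of 0.433 [0.255, 0.744]. The largest fibroblast cluster, number 11, had 22.8, 8.97 and 20.6 CPM, from 18, 11 and 18 counts.

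In keratinocytes Cyp27a1 had 4.23 CPM in the control library, 5.77 in UV and 5.50 in UV plus VD, ratios of 1.36 [1.14, 1.62] for UV and 1.30 [1.12, 1.52] for UV plus VD against control. Upper hair follicle cells, a single cluster, had 8.77 CPM in control, 28.8 in UV and 13.7 in UV plus VD, from 25, 53 and 17 counts. Their UV ratio was 3.28 [2.003, 5.51], opposite in direction to the fibroblasts, and UV plus VD against UV was 0.477 [0.259, 0.836]. The macrophage or monocyte markers in these follicle cells summed to 13.3, 51.6 and 13.7 CPM, with 7, 10 and 4 of the 13 markers above 0, and their part in the difference was not tested. Spinous cells were closer together, at 4.81, 5.77 and 6.89 CPM, and without the follicle and dividing classes the UV ratio over keratinocytes was 1.14. That ratio was 1.94 with each cell weighted the same and 2.05 with each cell thinned to 2500 counts.

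Cyp24a1, the classical calcitriol-induced gene, had 5 counts in the whole series. All were in the UV library, in 2 upper hair follicle cells, 4 of them in 1 cell. The control and UV plus VD tables used here do not list it, and since neither lists any gene that is 0 throughout, it was taken as 0 in 8473 and 5761 keratinocytes. The floor of 3 counts corresponds to 0.0397 and 0.0454 CPM in these keratinocytes. The upper 95% counting limit for 0 counts lies somewhat above that floor. No response of Cyp24a1 to VD was detectable at this depth.

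The Tslp level stood highest toward the basal end of the epidermis. Basal keratinocytes had 222 [212, 231] CPM in control, 226 [207, 246] in UV and 258 [243, 274] in UV plus VD, and granular cells 8.28, 0.474 and 1.49 CPM. Spinous cells are more numerous and held more of the counts, 2821 of 5548 in control, 542 of 1298 in UV and 1373 of 3239 in UV plus VD, against 2181, 532 and 1117 in basal cells. Over all keratinocytes the level was 73.5 [71.6, 75.5], 33.9 [32.0, 35.8] and 49.0 [47.3, 50.7] CPM. The UV library thus stood at 0.461 [0.433, 0.489] times control over all keratinocytes and at 1.02 [0.927, 1.12] times control in basal cells. UV plus VD stood at 1.45 [1.36, 1.54] times UV over all keratinocytes and at 1.14 [1.03, 1.27] times UV in basal cells. The basal classes compared are unlike mixes of clusters. Krt14 stood in them at 5303 CPM in control, 9882 in UV and 6187 in UV plus VD. Krt10 stood at 4169, 1834 and 3486 CPM. The part of this mix in the basal Tslp ratios was not tested.

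The level over all keratinocytes mixes layers with unlike levels, and basal cells were a smaller share of both irradiated libraries. Spinous cells had 67.5, 29.8 and 50.6 CPM, a UV ratio of 0.441 [0.402, 0.484], and spinous to granular cells 12.97, 4.66 and 8.29 CPM. Single spinous clusters did not share 1 direction. In cluster 0 Tslp was at 154 [147, 162] CPM in control, 151 [122, 186] in UV and 219 [201, 238] in UV plus VD. The UV ratio was 1.66 [1.38, 1.99] in cluster 1, 0.670 [0.558, 0.7996] in cluster 2 and 1.35 [0.967, 1.86] in cluster 5. Cluster 9 was at 7.71 CPM in UV. Along the bins control went through 250, 134, 75.9, 21.1, 13.2 and 7.92 CPM, UV through 229, 88.5, 96.7, 20.3, 8.23 and 3.31, and UV plus VD through 282, 173, 78.4, 28.6, 11.0 and 4.30. With the bins weighted to their control shares, a setting added after the data were seen, the UV ratio was 0.877 and the UV plus VD to control ratio turned from 0.666 to 1.16. With the named layers weighted likewise, the same ratios were 0.669 and 0.938. With the cells of the bins unweighted, the UV ratio was 0.472.

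A few cells carried much of the Tslp. The intervals of its levels and ratios treat counts as independent, so they are too narrow. In basal cells the top cell held 4.45% of the counts in control, 13.3% in UV and 13.5% in UV plus VD, and the top 10 cells 26.2%, 54.1% and 49.3%. The share of basal cells with a count, which such cells do not move, was 20.2% [18.3, 22.2], 19.7% [16.0, 23.8] and 20.2% [17.3, 23.5] after thinning, and 31.3%, 27.6% and 30.5% as counted. T or NK cells, where Tslp can be keratinocyte RNA, had a thinned share of 11.7%, 1.75% and 3.39%. Among all keratinocytes, those with at least 20 counts were 40, 12 and 28 cells, or 0.472%, 0.335% and 0.486%, and held 30.1%, 35.4% and 41.6% of the counts. Cells with 10 to 19 counts were 46, 9 and 15, or 0.543%, 0.251% and 0.2604%. Cells with a single count were 12.5%, 6.45% and 8.82% of keratinocytes.

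**Figure D4:**
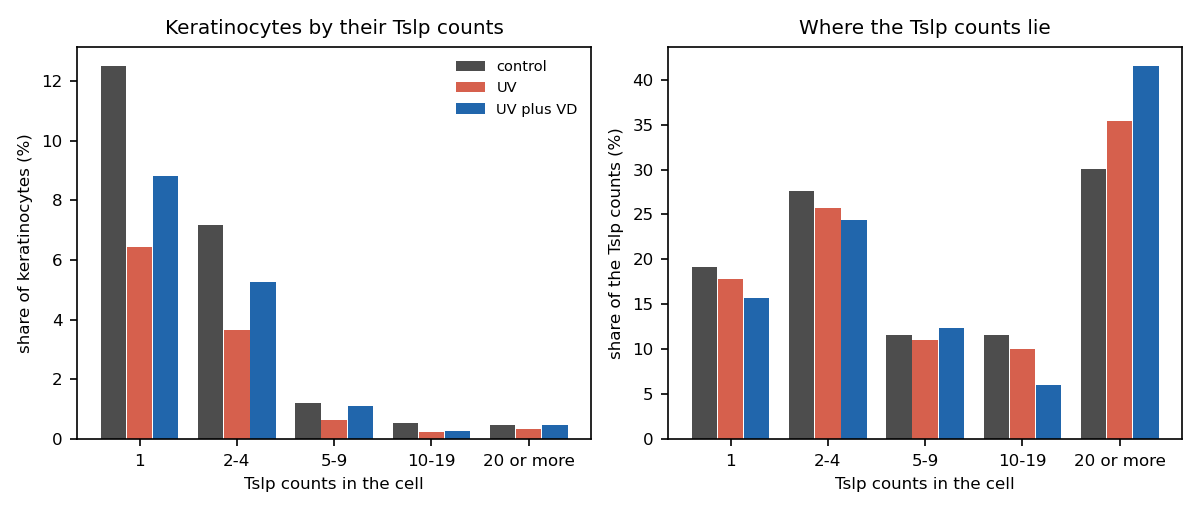
Keratinocytes grouped by their number of Tslp counts (x axis), as the share of keratinocytes (left, %) and the share of all Tslp counts in keratinocytes (right, %), with bars from 0 and 1 colour per library. Cells with at least 20 counts are under 0.5% of each library and hold 30.1% to 41.6% of the counts.

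The dividing basal cluster had the highest Tslp level of the keratinocyte classes in control and in UV plus VD, but not in UV: 268 CPM in control, 124 in UV and 536 in UV plus VD, or 4.31 [3.41, 5.50] times UV in UV plus VD. It holds 87, 100 and 109 cells, the top 10 of which gave 66.5%, 88.1% and 88.2% of the counts. Its thinned share of positive cells, 24.1%, 9.0% and 20.2%, puts control first, against the order of the levels, so no order is read from it. Cluster 12 had 200 CPM in control, from 8 cells with a count, and 16.1 CPM in UV.

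In keratinocytes 8 of the 9 genes had at least 20 counts in each pair of libraries. In UV against control 2 of these 8, Cyp27b1 and Tslp, were at least 1.5-fold apart, both lower, while 29.3% of the 13574 genes measured were that far apart (18.3% higher and 10.9% lower). Between UV plus VD and UV 1 of 8, Cyp27b1, was past that size, higher with VD, against 22.6% of genes (4.99% higher and 17.6% lower). Between UV plus VD and control 2 of 8, Cyp27b1 and Tslp, were past it and lower, against 22.2% of genes (9.57% higher and 12.7% lower). Counted in either direction, these shares are near the background or below it. The comparisons share libraries and are not independent of each other.

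**Figure D5:**
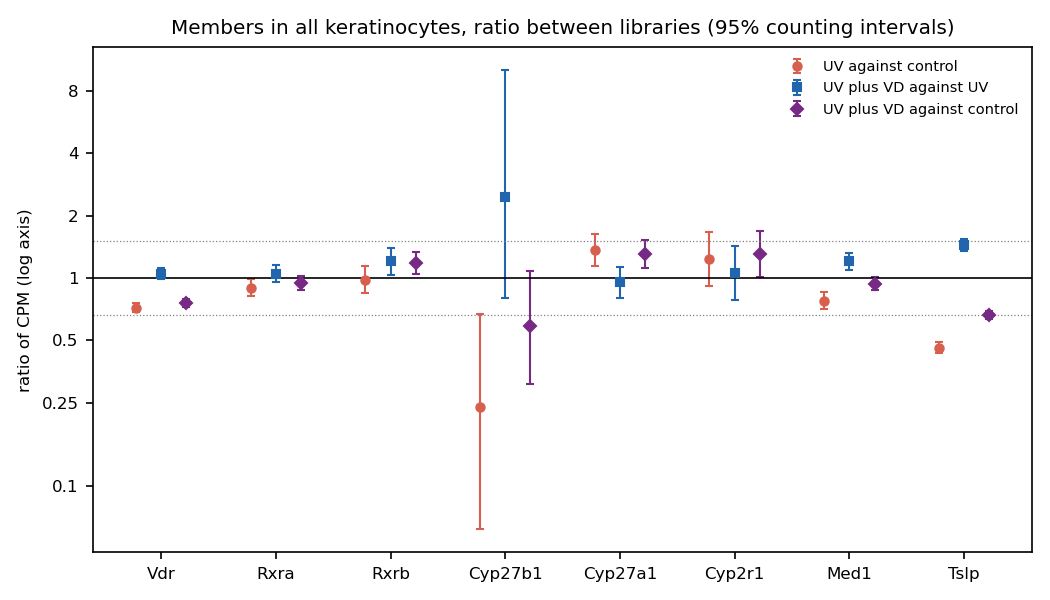
Ratio of CPM between libraries over all keratinocytes for 8 genes (log axis), 1 marker per comparison, with 95% counting intervals; dotted lines mark 1.5-fold in either direction. Tslp and Cyp27b1 lie under the lower line in UV against control, and Vdr lies at 0.721 and 0.758 against control for the irradiated libraries.

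Other genes of the pathway were taken from 5 lists and counted the same way in keratinocytes. In UV against control 18.3% of all genes stood above the 1.5-fold size and 10.9% below it. Of 14 genes of vitamin D synthesis, transport and P450 partners, 9 were measured, and 1 of them stood at least 1.5-fold above control in UV and 0 below it; the median log2 ratio was 0.09, against -0.04 over all genes. The higher one was Dab2, an endocytic adaptor also known from macrophages. Ebp, a sterol isomerase gene, stayed within that size, with 74.2 CPM in the control library and 110 in UV. Of 26 receptor partners and coregulators 25 were measured, with 0 above and 1 below that size and a median of -0.15. The lower one was the chromatin remodeller Baz1b, at 14.2 and 9.42 CPM, and the corepressor Ncor1 was at 52.5 and 38.9. Of 15 other receptors that pair with RXR 9 were measured, 1 was higher and 2 were lower; the retinoic acid receptor Rara was at 14.4 and 8.50 CPM and the thyroid hormone receptor Thrb at 4.45 and 6.97.

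Textbook vitamin D response genes stood furthest from the background. Of 28, 21 were measured in UV against control, with a median log2 ratio of 0.52. Of these, 10 stood above and 5 below the 1.5-fold size, where 18.3% of all genes stood above and 10.9% below. The list sets no direction of response for its genes, so counts above or below do not measure a vitamin D response. Pthlh, the parathyroid hormone related peptide, had 1.32 CPM in the control library and 9.13 in UV, and the transcription factor Cebpb at 34.4 and 60.1. Igfbp3, an insulin-like growth factor binding protein, was at 421 and 95.7 CPM, and the DNA damage gene Gadd45a at 64.2 and 38.8. The higher genes included Cd14, Spp1, Thbd and Tlr2, which myeloid cells also express, beside the higher macrophage marker sum given above. In UV plus VD against UV 2 stood above and 6 below, where 4.99% and 17.6% of all genes did. The median was -0.22, against 0.01 over all genes. Igfbp3 was at 228 CPM in UV plus VD, above UV and below control, the cell cycle inhibitor Cdkn1a went from 1647 CPM in UV to 2408, Pthlh was at 0.998 and Cd14 at 2.07 against 8.32. Igfbp3 is 1 of the 10 leading genes of spinous cluster 0, which held 1906 control, 98 UV and 425 UV plus VD cells. The part of this cluster mix in the Igfbp3 levels was not tested.

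The list of the TSLP receptor, its inputs and the type 2 axis had 22 of 25 genes measured in keratinocytes. In UV 6 stood above the size and 2 below, where 18.3% and 10.9% of all genes did, and the median was -0.11. The alarmin Il33 was at 180 CPM in control, 76.6 in UV and 48.6 in UV plus VD, and Orai1, a calcium channel gene upstream of TSLP release, at 103, 68.5 and 80.1. The kallikrein Klk5, a protease that can induce TSLP, was at 425, 701 and 590 CPM. Over all cells, which include the larger immune share of the UV library, 10 of 25 stood above and 4 below the size in UV, where 34.4% of all genes stood above and 6.26% below with a median of 0.18. In UV plus VD against UV 0 stood above and 13 below, where 4.25% and 35.4% of all genes did, with a median of -0.21. There Il7r, a chain of the TSLP receptor, was at 1.54, 15.1 and 1.08 CPM, and the IL-33 receptor Il1rl1 at 1.32, 26.5 and 12.02; fewer immune cells and less RNA per cell are not told apart by such sums.

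Likeness between genes was measured as Pearson's r of log2(CPM + 10) over 37 class and library pairs with at least 50 cells each, among 9270 genes. These pairs share libraries, and r is a description. Nearest to Vdr was the tight junction gene Cldn1 at 0.89, then Grpel2 at 0.87 and Myo1e at 0.86. Nearest to Tslp were Clec2f and Flvcr1, both at 0.88, and Il20ra at 0.87, and nearest to Cyp27a1 were C6 at 0.84, Selenop at 0.82 and Eps8 at 0.81. Rxra was most like Nelfe at 0.74, Rxrb like Fastkd2 at 0.84 and Med1 like Prrc2c at 0.86. Between the members r was 0.45 for Vdr with Rxra, 0.29 for Vdr with Tslp and 0.42 for Med1 with Tslp. Within basal cells thinned to equal depth, Tslp was counted in 18.9% of control cells with a Vdr count and 20.4% of those without, in 22.4% and 19.3% of UV cells, and in 22.2% and 19.97% of UV plus VD cells.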

How the data were processed

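Single-cell libraries of whole skin, 1 per group, were analysed from the authors' deposited tables of raw counts per gene and cell barcode. Per the submitters' processing notes, FastQC, fastp, STAR and featureCounts were used, with no versions, and the build is named GRCh38, a human build, so features carry no coordinates here; 97.9% to 98.0% of the symbols matched mouse genes. The sources used here do not say if reads or molecules were counted; for reads the intervals would be too narrow. The lowest barcode totals, 2822, 3010 and 3409, show a selection of barcodes ahead of deposit.

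Cells with under 200 genes or over 20% mitochondrial counts were left out. No doublet caller was run. Cells were clustered jointly (scanpy 1.11.5, leidenalg 0.10.2; log counts per 10000, 2000 variable genes without the members and list genes, 30 components, 15 neighbours, resolution 1, no library correction). Clusters were named from 24 marker lists. A name needed at least 3 markers in 25% of the cluster's cells. Member counts were summed per class and library as CPM; intervals are exact Poisson (levels), exact conditional (ratios) and exact binomial (shares). Ratios use genes with at least 20 counts, a fold size of 1.5, a floor of 3 counts and classes of at least 50 cells. Shares were also computed with each cell thinned to 2500 counts. On simulated counts for UV against control, 98.5% of 200 genes altered 2-fold among 10538 passed the fold size. The simulated counts varied by counting error only and covered genes with at least 100 counts, which leaves out Cyp27b1. They hold no spread between animals, libraries or cells.

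The members and lists were chosen with earlier results of these data known. Named genes were the 9 members. From each list the 2 highest and 2 lowest by log2(CPM + 10) were named, among genes with at least 50 counts. The 3 genes most like each member, with at least 500 counts, were named too. Genes named only because they passed the fold size (Dab2, Cd14, Spp1, Thbd, Tlr2) and the receptors Il7r and Il1rl1 were chosen after their values were seen. So were the clusters singled out (0, 1, 2, 3, 5, 6, 7, 9, 10, 11, 12, 13, 18, 19, 20, 22, 23, 28). Alternatives changed the classes, filters, scaling, cell weights, layer mix and pseudocount. A gene that the rule names is not reported here.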

Additional observations from a re-analysis of the deposited data

Results flagged for a closer look

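Cyp27a1 differed in direction between cell classes in the same comparison, with counting intervals on opposite sides of 1; the difference between classes was not tested. In UV against control the ratio was 3.28 in upper hair follicle keratinocytes and 0.433 in fibroblasts. In UV plus VD against UV the order was opposite, 1.85 in fibroblasts and 0.477 in upper hair follicle keratinocytes. These rest on 17 to 53 counts per class and library.

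Tslp ratios also lay on opposite sides of 1 in keratinocyte classes, and this was not tested either. In UV plus VD against UV the ratio was 4.31 in the dividing basal cluster and 0.311 in upper hair follicle keratinocytes, the latter from 43 UV and 9 UV plus VD counts. In UV plus VD against control it was 2.003 in the dividing basal cluster and 0.180 in granular keratinocytes, the latter from 18 control and 8 UV plus VD counts. The top 10 cells gave 88.2% of the dividing cluster's UV plus VD counts, and its share of positive cells after thinning, 24.1% in control, 9.0% in UV and 20.2% in UV plus VD, puts the libraries in another order, so no order is read from its level.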

How the results depend on the processing

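No paired analysis was possible because each group has 1 library. Over 18 alternatives Vdr kept its direction in UV against control (0.683 to 0.775) and in UV plus VD against control (0.719 to 0.816). For Vdr, Tslp and the counts of members, the values that left the main counting intervals follow, grouped by setting. With each cell weighted the same, Vdr was 0.775 in UV against control and 0.986 in UV plus VD against UV, and Tslp was 0.555, 1.28 and, in UV plus VD against control, 0.712; 0 members were then 1.5-fold apart in UV plus VD against control. With each cell thinned, Vdr was 0.771 and 0.940, Tslp was 0.559, 1.25 and 0.697, and 1 member was that far apart in UV plus VD against control. With classes assigned cell by cell, Tslp was 0.373 and 1.77, 2 members were past the size in UV plus VD against UV, and 2 members in place of 5 were highest in keratinocytes among the larger classes. Without the 5% of cells with the highest totals, Tslp was 1.33 in UV plus VD against UV. With totals without mitochondrial and rRNA genes, UV plus VD against control was 0.719 for Vdr and 0.632 for Tslp. Without cells carrying markers of an unrelated lineage, or with median-of-ratios size factors, or without clusters 9 and 28, 1 member was past the size in UV plus VD against control. Without those clusters Tslp was 0.530 in UV against control and 1.26 in UV plus VD against UV.

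With layers weighted to control shares, Tslp was 0.669 in UV and 0.938 in UV plus VD against control, with 1 and 0 members past the size. With bins weighted likewise, Tslp was 0.877 and, in UV plus VD against UV, 1.32, Vdr was 0.816 in UV plus VD against control, and 1 and 0 members were past the size against control. Under that setting 3 ratios turned: Tslp in UV plus VD against control (1.16), Cyp27a1 in UV against control (0.961) and Cyp2r1 in UV plus VD against control (0.927). In interfollicular cells only, UV plus VD against UV was 1.13 for Vdr and 1.24 for Tslp, and Tslp was 0.584 against control. With at most 5 counts per cell, Tslp was 1.35 and 0.592 in the same comparisons. With CPM plus 1, members past the size were 1, 0 and 0 in the 3 comparisons. With CPM plus 10 they were also 1, 0 and 0, and Tslp was 0.525, 1.34 and 0.706. With at least 100 counts they were 1, 0 and 1, and with no minimum count 2 in UV plus VD against UV. Of the other members, Cyp27b1 left its interval at 0.768 (CPM plus 1) and 0.968 (CPM plus 10) in UV against control, and thinned at 0.622 in UV plus VD against UV and 0.184 against control. Cyp27a1 left it in UV against control at 1.94 (each cell weighted the same), 2.05 (thinned), 1.11 (CPM plus 10) and 1.14 (interfollicular), in UV plus VD against UV at 0.732, 0.669, 1.16 (interfollicular) and 1.18 (bins), and in UV plus VD against control at 1.09 (CPM plus 10). Med1 did so at 0.864 (thinned) and 0.894 (bins) in UV, and in UV plus VD against control at 1.03 (thinned), 1.02 (layers) and 1.06 (bins), where Rxra was 0.870 (layers) and 0.798 (bins) and Rxrb 1.39 (thinned). The cause of these shifts was not tested. The settings with bins, clusters 9 and 28, the cap and interfollicular cells were added after seeing the data. Cyp24a1 had 5 counts in all and Cyp27b1 33, 4 and 17 in keratinocytes, and Cyp27b1 in UV plus VD against UV ran from 0.622 to 6.63.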

Other observations

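Tslp was also counted in resident macrophages of cluster 13, which was singled out after its values were seen. This cluster carried Mrc1 at 1633, 2049 and 1815 CPM and Cd209f at 1004, 1518 and 1208 CPM in the control, UV and UV plus VD libraries. Its Tslp level was 57.8 [40.1, 80.8], 95.2 [76.2, 118] and 44.3 [26.2, 70.0] CPM, or 78.7%, 281% and 90.4% of the keratinocyte level of the same library. Keratin RNA in the same cells stood lower relative to keratinocytes: Krt14 at 25.7%, 28.7% and 15.5%, and Krt10 at 11.3%, 9.26% and 17.2%. The 10 basal keratinocyte markers, of which 8, 10 and 6 had counts, summed to 570, 667 and 204 CPM there, against 2390, 2298 and 1402 CPM in keratinocytes. The counts were 34, 86 and 18, spread over 24, 52 and 8 cells with at most 5 in a cell. Cluster 10 of the UV library, led by Cd74, H2-Aa and H2-Ab1 and with Krt14 at 16.6% of the keratinocyte level, had Tslp at 1.29 CPM, 3.82% of the keratinocyte level. Cluster 13 was not alone outside keratinocytes. Fibroblasts had 36, 79 and 26 Tslp counts in control, UV and UV plus VD, at 40.4%, 64.2% and 39.5% of the keratinocyte level. Krt14 in fibroblasts stood at 34.8%, 13.9% and 52.9%. Control Langerhans cells had 34 Tslp counts, at 88.3%, with Krt14 at 669%, and UV Langerhans cells had 0. The part of free RNA and of doublets in the macrophage, fibroblast and Langerhans values was not tested.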
